A study of Mus musculus with 8 samples.

Results

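The 41 genes described here encode the machinery of mitosis: 7 mitotic cyclins and kinases, 9 proteins of the spindle microtubules, 6 of the centromere and kinetochore, 3 spindle checkpoint kinases, 4 subunits of the chromosomal passenger complex, 5 regulators of sister separation, 6 cytokinesis proteins and the proliferation marker Mki67. They were chosen by name, with earlier results of these data known, from a list that left out the kinesin motors as a family. Matching Entrez identifiers to RefSeq symbols found them. Because of that choice, the shares over all genes given beside their counts are descriptions and not a test of the set. All 41 were among the 27179 genes of the count table, and all 41 passed the filter on low counts. Cenpe, listed with the kinetochore, is itself a kinesin motor and was kept.

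Polyadenylated RNA was sequenced from mouse acute myeloid leukaemia cells carrying MLL-AF9, a fusion oncogene that joins a histone methyltransferase to AF9. The cells expressed GFP and luciferase, came from 1 terminally ill mouse, were expanded in culture, and were injected into unconditioned male recipients aged 8 to 10 weeks. The groups thus share 1 leukaemia, and nothing here speaks to other leukaemias. The genotype label reads WT, and the strain of the recipients is not given in the sources used here. Every mouse received 5+3 chemotherapy, made up of cytarabine (100 mg/kg) on each of 5 days and doxorubicin (3 mg/kg) on days 1 to 3. Living GFP-positive cells were sorted from crushed bones when the response to chemotherapy was at its maximum. The standard amino acid diet gave 5 libraries and the diet lacking leucine, isoleucine and valine, the branched-chain amino acids (BCAA), gave 3, which the labels call biological replicates. The titles of those 3 samples carry the word BCAA alone, and that the diet was free of BCAA comes from the text of the series. The comparison asks how that diet, added to chemotherapy, changed gene expression in the leukaemia cells.

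In mitosis, cyclin B with Cdk1 drives the cell into division, and Polo-like and Aurora kinases help to build the bipolar spindle. Kinetochores on the centromeres capture spindle microtubules, and the spindle checkpoint holds back the anaphase-promoting complex until every chromosome is attached. That complex, a ubiquitin ligase, then marks securin and cyclin B for destruction, sisters part, and a contractile ring divides the cell. Most of these genes are transcribed in G2 and M phase, so in a bulk sample their transcripts rise with the share of dividing cells.

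Library totals were 16588662 to 38966911 counts on the standard diet and 14851240 to 30306697 on the BCAA-free diet, and no member had fewer than 245 counts in any library. The 14 markers of the leukaemia summed to 12270 to 15831 CPM (counts scaled to library size) on the standard diet and 10366 to 12556 on the BCAA-free diet. The granule peroxidase Mpo was at 7327 to 9869 CPM on the standard diet and 5915 to 7226 on the BCAA-free diet, and the MLL-fusion target Hoxa9 at 159 to 198 and 142 to 190. Not all were abundant: Flt3 had means of 6.91 and 15.3 CPM and Mef2c of 3.84 and 8.39. Of the 14, 9 had a negative log2 fold change and 5 a positive one, with a median of -0.14, and edgeR called none. Summed markers of other cells were present in both groups, and no marker that was in the table was at 0 in all libraries. The sum for mature neutrophils was 305 to 2238 CPM on the standard diet and 720 to 2768 CPM without BCAA, and for macrophages 292 to 398 and 235 to 312. Most of the macrophage sum came from Vcam1 (means of 218 and 160.1 CPM) and Adgre1 (114 and 75.6), and the other 7 of the 9 macrophage markers had positive log2 fold changes, as C1qa did (2.75 and 5.32 CPM). Over the 9 the median was 0.97, with 3 higher and 1 lower without overlap, beside 4.17% and 4.68% of all genes. Of the 9, 8 had an unadjusted p under 0.05, 2 of them lower, where 1800 of all 13364 genes tested did. edgeR and limma-voom called none of the 9, and DESeq2 called 1 higher. B-cell markers summed to 99.7 to 336 CPM on the standard diet and 151 to 313 without BCAA, most of it Ighm (means of 147 and 185 CPM). T-cell markers summed to 3.97 to 10.0 and 5.87 to 38.7 CPM. Erythroid markers summed to 3.28 to 14.3 and 4.30 to 47.9 CPM, and markers of stroma and endothelium to 25.2 to 46.4 and 43.3 to 63.8. Immediate early genes, which respond to tissue handling, summed to 79.2 to 99.5 CPM on the standard diet and 116 to 133 on the BCAA-free diet, with no overlap. All tested markers of mature neutrophils (8), B cells (6), T cells (7) and erythroid cells (5) had positive log2 fold changes, with medians of 0.51, 3.03, 1.68 and 1.57. Of the 6 B-cell markers, edgeR called 3 higher and 3 were higher without overlap, beside 0.217% and 4.17% of all genes. Genes of these lists that edgeR called, all higher without BCAA, included the B-cell receptor genes Cd79a and Cd79b and the stromal Cxcl12. Of the 8 fits that left out 1 library, Cd79b passed in 7, and Cd79a and Cxcl12 in 3 each. Their highest edgeR adjusted p was 0.0764, 0.235 and 0.119, in that order. The part of these differences in the results on mitotic genes was not tested.

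Of the 41 mitotic genes, 7 were called lower in leukaemia cells from mice fed without BCAA, beside 0.539% of all genes tested, and 34 did not pass the test. The 41 genes took 0.757% to 0.833% of all counts on the standard diet (0.799% ± 0.0342, SD, n = 5) and 0.610% to 0.659% on the BCAA-free diet (0.642% ± 0.0273, SD, n = 3). Of the 41, 39 had a negative log2 fold change (BCAA-free against standard diet) and 2, Ccnb2 and Pttg1, a positive one. The median was -0.32, with quartiles of -0.45 and -0.23, beside 0.02 over the 13364 genes tested and -0.01 over the 7726 genes at least as abundant as the lowest member. In bulk samples, fewer cells in mitosis and less mitotic RNA per cell cannot be told apart.

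The genes that passed edgeR's quasi-likelihood test at an adjusted p under 0.05, all lower, were Hmmr, Diaph3, Nusap1, Aspm, Prc1, Anln and Bub1. The share of genes called lower was 0.867% among the 7726 genes at least as abundant as the lowest member. None of the 41 was called higher by edgeR, DESeq2 or limma-voom, beside 0.217% of all genes called higher by edgeR. None was higher at an unadjusted edgeR p under 0.05. Of all 13364 genes tested, 1800 had such a p, 970 of them lower and the rest higher. At an unadjusted p under 0.05, 30 of the 41 were lower, where 7.26% of all genes were. In 17 of the 41 every BCAA-free library was below every standard-diet library (4.68% of all genes), and in 1, Pttg1, every BCAA-free library was above (4.17% of all genes). DESeq2 called 13 of the 41 lower, against 1.85% of all genes it gave an adjusted p, by adding Nuf2, Ckap2l, Ect2, Ndc80, Spc25 and Mki67 to the 7. limma-voom called 7 lower, against 0.367% of all genes, with Mki67 in place of Bub1.

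The number of calls depended on single libraries. It was 1 without BCAA-free replicate 2 (Diaph3), 2 without BCAA-free replicate 1 or without standard-diet replicate 5 (Diaph3 and Aspm in both), and 4 without BCAA-free replicate 3 or without standard-diet replicate 4. Without standard-diet replicate 1 or 3 it was 5, and without standard-diet replicate 2 it was 7, with Nuf2 in place of Bub1. The calls over all genes moved as well. With every library 72 were lower, and without BCAA-free replicates 1, 2 and 3 in turn 38, 29 and 56 were. Without standard-diet replicates 1 to 5 in turn, 64, 41, 73, 44 and 39 of all genes were called lower. Leaving out standard-diet replicate 3 together with BCAA-free replicate 2, which held the most neutrophil marker RNA of their groups, left Diaph3 alone among the members. That fit called 41 of all genes lower.

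**Figure D1:**
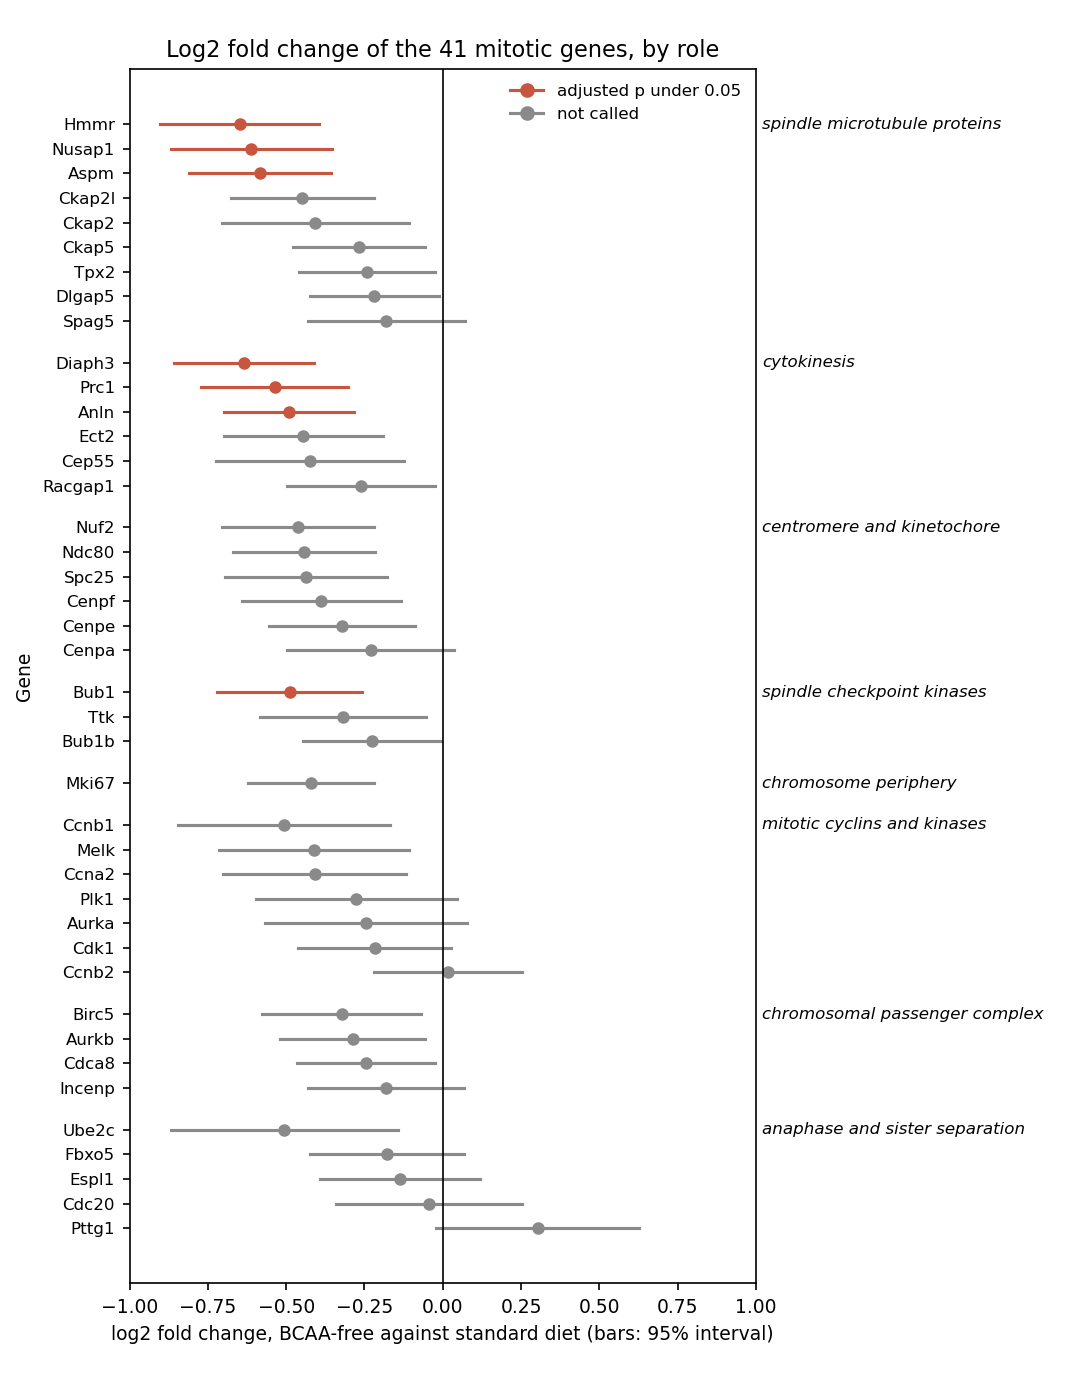
Log2 fold change of each of the 41 genes, BCAA-free against standard diet, on the horizontal axis with its 95% interval, grouped by role. Red points passed the adjusted threshold and grey points did not. The 7 called genes lie between -0.65 and -0.49, 39 of the 41 points lie left of 0, and Pttg1 at 0.30 lies farthest right.

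Hmmr, whose product binds spindle microtubules and is also known as the hyaluronan-mediated motility receptor, had the lowest log2 fold change of the 41. It lies at chr11:40701388-40733464 (GRCm38.p6, as for all coordinates here). Its levels were 164, 165, 218, 179 and 216 CPM in standard-diet replicates 1 to 5 and 117, 128 and 115 CPM in the BCAA-free replicates. Every BCAA-free library was below every standard-diet library. The means were 188 ± 26.5 (SD, n = 5) and 120.1 ± 7.38 CPM (SD, n = 3), a log2 fold change of -0.65 (SE 0.12, 95% interval -0.90 to -0.39) with an edgeR adjusted p of 0.0182. The adjusted p was above 0.05 without BCAA-free replicate 1 (0.0723), without BCAA-free replicate 2 (0.0598) and without standard-diet replicate 5 (0.0551).

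Diaph3, a formin that nucleates actin filaments and works in the cleavage furrow, lies at chr14:86655357-87141247. It was at 163, 192, 153, 162 and 162 CPM on the standard diet and at 109, 112 and 99.6 CPM on the BCAA-free diet. The groups did not overlap, and the gap between the lowest standard-diet and the highest BCAA-free library was larger than the spread of the BCAA-free libraries. The log2 fold change was -0.64 (SE 0.11, 95% interval -0.86 to -0.41) with an edgeR adjusted p of 0.00852. Diaph3 was the 1 member that passed with any single library left out, with a highest adjusted p of 0.0424.

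Nusap1 and Aspm belong to the spindle. Nusap1, which bundles microtubules near chromosomes, lies at chr2:119618298-119650165 and was at 127, 109.6, 142, 115 and 152 CPM on the standard diet and 89.3, 79.4 and 84.9 CPM on the BCAA-free diet. Its log2 fold change was -0.61 (SE 0.12, edgeR adjusted p = 0.0281). Aspm, a spindle-pole protein whose human counterpart is mutated in primary microcephaly, lies at chr1:139454188-139494088 and was at 173, 170.5, 167, 157 and 169.5 CPM on the standard diet and 129.8, 106 and 100.1 CPM on the BCAA-free diet. Its log2 fold change was -0.58 (SE 0.11, edgeR adjusted p = 0.0175). Neither gene's groups overlapped. In standard-diet mice Aspm was held within a narrow range (167 ± 6.24 CPM, SD, n = 5), while Nusap1 varied more (129 ± 18.1). Nusap1 missed the threshold without BCAA-free replicate 1 (0.0664), BCAA-free replicate 2 (0.137) or standard-diet replicate 5 (0.0722), and Aspm without BCAA-free replicate 2 (0.108) or 3 (0.0528).

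Prc1 and Anln act at the division plane. Prc1 crosslinks the antiparallel microtubules of the central spindle, lies at chr7:80294445-80316259, and was at 180.2, 152, 173, 159 and 196 CPM on the standard diet and 128, 107 and 121 CPM on the BCAA-free diet. Its log2 fold change was -0.54 (SE 0.11, edgeR adjusted p = 0.0374). Anln encodes anillin, a scaffold of the contractile ring that binds actin, myosin and septins. It lies at chr9:22331214-22389211 and was at 183, 189, 166, 183 and 177 CPM on the standard diet and 129, 119 and 135 CPM on the BCAA-free diet. Its log2 fold change was -0.49 (SE 0.10, edgeR adjusted p = 0.0284). Every BCAA-free library of both genes was below every standard-diet library. Prc1 passed in 1 of the 8 fits that left out a library, the one without standard-diet replicate 2 (0.026), and its adjusted p in the others ran from 0.0545 to 0.174. Anln missed the threshold without BCAA-free replicate 1 (0.074) or 2 (0.153) and without standard-diet replicate 4 (0.0789) or 5 (0.0686).

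Bub1 was the checkpoint kinase that passed. It marks centromeric chromatin by phosphorylating a histone and recruits checkpoint proteins to kinetochores, and it lies at chr2:127800197-127831859. Its levels were 191, 199.9, 231, 187 and 232 CPM on the standard diet and 153, 153 and 139 CPM on the BCAA-free diet, without overlap. The log2 fold change was -0.49 (SE 0.11, 95% interval -0.72 to -0.26), and its edgeR adjusted p of 0.0483 was the closest to the threshold of the 7. It passed in no fit that left out 1 library, where the adjusted p ran from 0.0504 to 0.150.

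**Figure D2:**
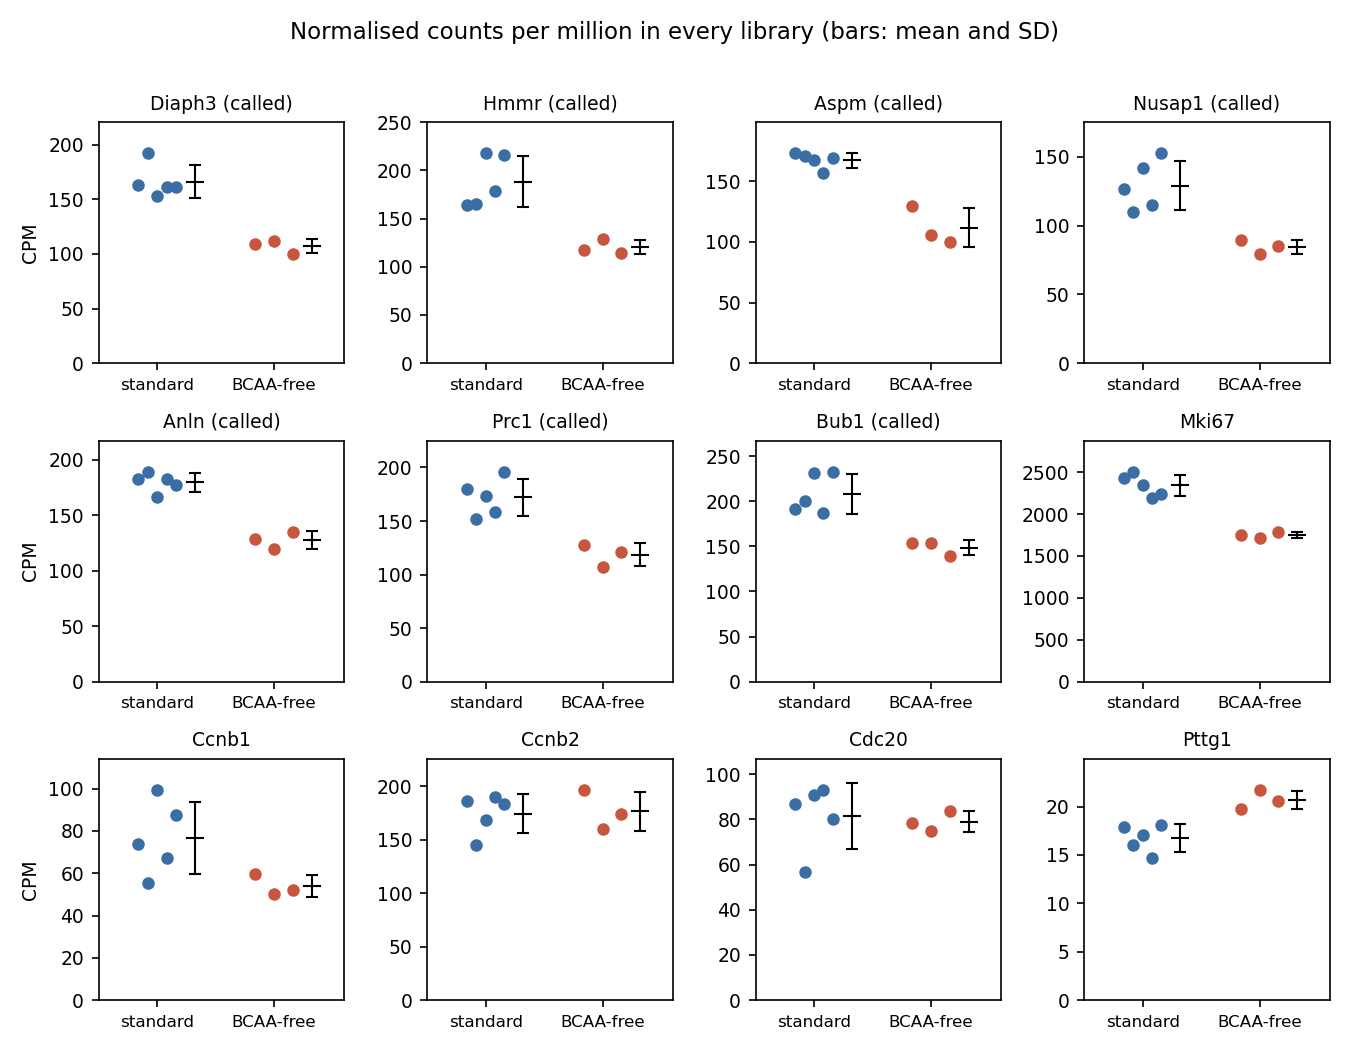
CPM (vertical axes, from 0) of single genes in every library, with the mean and SD of each diet as bars, for the 5 standard-diet and 3 BCAA-free libraries. The called genes such as Diaph3 and Anln show a gap between the diets, whereas the Cdc20 and Ccnb2 libraries of both diets are mixed.

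Promoters of mitotic genes are known to carry CCAAT boxes, bound by NF-Y, and a cell cycle genes homology region (CHR), bound by the DREAM and MYB-MuvB complexes that time transcription to G2 and M phase. RefSeq promoters (GRCm38.p6) were matched for 36 of the 41 genes, and the 250 bases before each start were searched on both strands for TTTGAA, the CHR letters, and for CCAAT. The CHR letters were found in 12 of 36 genes (33.3%), beside 13.2% of 10034 tested genes with a promoter, and CCAAT in 28 of 36 (77.8%), beside 41.1%. Both were found in 11 of 36 (30.6%), beside 5.18%. Over all 27025 genes of the promoter table the shares were 18.3%, 37.5% and 6.45%. A match is a run of letters and not a measured binding site.

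The 120 bases before the start are printed for 6 genes to show how unlike these promoters are: 4 called genes with CCAAT boxes and no CHR letters in the 250 bases searched (Hmmr, Diaph3, Aspm and Bub1), Prc1 from its second RefSeq start, which carries both, and Mki67, with 2 copies of the CHR letters here and its CCAAT boxes farther upstream. Each is written 5′ to 3′ on the strand of the gene, with CCAAT (or ATTGG, its reverse complement) and TTTGAA in capitals. The start used can lie inside the span of the gene. The Aspm stretch falls wholly within that span, those of Hmmr, Diaph3, Prc1 and Mki67 overlap it in part, and that of Bub1 lies outside it.
Hmmr, chr11:40733438-40733557, minus strand: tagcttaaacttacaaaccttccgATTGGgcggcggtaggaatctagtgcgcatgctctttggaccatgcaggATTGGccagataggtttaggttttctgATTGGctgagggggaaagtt
Diaph3, chr14:87141225-87141344, minus strand: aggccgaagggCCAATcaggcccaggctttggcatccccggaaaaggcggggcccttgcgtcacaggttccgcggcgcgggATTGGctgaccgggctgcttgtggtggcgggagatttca
Aspm, chr1:139454653-139454772, plus strand: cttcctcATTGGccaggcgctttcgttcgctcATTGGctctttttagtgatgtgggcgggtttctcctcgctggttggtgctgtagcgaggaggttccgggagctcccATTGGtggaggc
Bub1, chr2:127831860-127831979, minus strand: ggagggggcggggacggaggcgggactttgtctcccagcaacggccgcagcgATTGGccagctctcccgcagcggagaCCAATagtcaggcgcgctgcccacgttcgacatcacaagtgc
Prc1, chr7:80294356-80294475, plus strand: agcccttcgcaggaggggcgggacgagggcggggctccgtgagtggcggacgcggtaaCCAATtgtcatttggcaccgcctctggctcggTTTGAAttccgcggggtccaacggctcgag
Mki67, chr7:135716380-135716499, minus strand: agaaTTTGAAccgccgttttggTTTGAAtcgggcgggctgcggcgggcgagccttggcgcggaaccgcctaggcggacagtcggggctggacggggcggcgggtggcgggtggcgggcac

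Genes with and without the motif letters were called. Of the 7 called genes, 1 (Prc1) carried the CHR letters and 5 carried CCAAT, while Nusap1 and Anln carried neither. The 12 genes with the CHR letters had a median log2 fold change of -0.41 with 1 call, and the 24 without them -0.36 with 6 calls. The 28 genes with CCAAT had a median of -0.32 with 5 calls and the 8 without it -0.43 with 2 calls. Cdk1 and Ccnb2 also carried both motifs, with log2 fold changes of -0.22 and 0.02.

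Mki67, whose product coats mitotic chromosomes and is the standard stain for cycling cells, was the most abundant member. Per kilobase of its longest transcript it reached 218 to 249 CPM on the standard diet and 170.3 to 177 on the BCAA-free diet, ahead of Ccnb2 at 94.9 to 124 and 104 to 128 and of Ccna2 at 72.2 to 110.3 and 64.5 to 81.0. The standard-diet libraries of Ccnb2 and Ccna2 overlapped in this measure, so their order is not resolved. Its counts without length scaling were 2431, 2502, 2345, 2192 and 2237 CPM on the standard diet and 1752, 1713 and 1783 CPM on the BCAA-free diet. The groups stood far apart for their spread, but the log2 fold change of -0.42 (SE 0.10, 95% interval -0.62 to -0.22) missed the threshold with an edgeR adjusted p of 0.0531. DESeq2 (0.000314) and limma-voom (0.0341) called it, as did edgeR after removal of GC and length trends (0.0292). At the other end, Pttg1 (8.78 to 10.8 CPM per kilobase) and Espl1 (10.7 to 14.4) were the scarcest on the standard diet and their ranges overlapped, while without BCAA the lowest means were those of Aspm (11.3) and Espl1 (11.4).

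All 9 spindle microtubule genes had negative log2 fold changes, with a median of -0.41. Of the 9, 3 were called lower and 6 did not overlap, beside 0.539% and 4.68% of all genes. Beside the 3 called genes, Ckap2l was at -0.45 (edgeR adjusted p = 0.0666), Ckap2 at -0.41 and the microtubule polymerase Ckap5 at -0.27. Tpx2, which activates Aurora A on spindle microtubules, was at -0.24, Dlgap5, which stabilises kinetochore fibres, at -0.22, and Spag5, a spindle and kinetochore protein known as astrin, at -0.18. None of these 6 passed in edgeR, 5 of them had an unadjusted p under 0.05, and DESeq2 called Ckap2l.

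Cytokinesis had the lowest median of the roles with more than 1 gene, -0.47 over 6 genes, of which 3 were called and 4 did not overlap, beside 0.539% and 4.68% of all genes. Ect2, the exchange factor that switches on RhoA at the division plane, was at -0.44 (edgeR adjusted p = 0.0965), without overlap. Cep55, which recruits the abscission machinery to the midbody, was at -0.42, and Racgap1, the partner that recruits Ect2 to the central spindle, at -0.26. These 3 did not pass in edgeR, although all had an unadjusted p under 0.05 and DESeq2 called Ect2.

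The 6 centromere and kinetochore genes were all negative, with a median of -0.41 and 4 without overlap, beside 4.68% of all genes. None passed in edgeR or limma-voom, 3 passed in DESeq2, and 5 had an unadjusted edgeR p under 0.05. The outer kinetochore complex that grips microtubules was represented by 3 of its subunits. Ndc80 was at 74.2, 69.8, 71.2, 81.1 and 77.2 CPM on the standard diet and 55.5, 56.8 and 52.6 CPM on the BCAA-free diet, a log2 fold change of -0.44 (SE 0.11, edgeR adjusted p = 0.0700). No BCAA-free library of Ndc80 reached the lowest standard-diet library. Its partners Nuf2 (-0.46, adjusted p = 0.0759) and Spc25 (-0.44, adjusted p = 0.117) had like fold changes in edgeR, and these 3 were the ones DESeq2 called. Cenpf, a large kinetochore protein, was at -0.39, the motor Cenpe at -0.32, and Cenpa, the histone H3 variant that defines the centromere, at -0.23.

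The checkpoint kinases other than Bub1 had smaller log2 fold changes. Bub1b, which encodes BubR1, a subunit of the inhibitor of the anaphase-promoting complex, was at 230.3, 184, 213, 209 and 209 CPM on the standard diet and 175, 166 and 195 CPM on the BCAA-free diet. The diets overlapped, and the log2 fold change of -0.23 (SE 0.10) did not pass (edgeR adjusted p = 0.352). Ttk, the kinase that starts checkpoint signalling, was at -0.32.

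None of the 7 mitotic cyclins and kinases was called by edgeR, DESeq2 or limma-voom. Of them, 3 had an unadjusted edgeR p under 0.05, and in none did the diets separate. Ccnb1, the main mitotic cyclin, was at 73.9, 55.4, 99.1, 67.2 and 87.3 CPM on the standard diet and 59.7, 50.3 and 51.9 CPM on the BCAA-free diet. The lowest standard-diet value, in replicate 2, fell within the BCAA-free range. Its log2 fold change of -0.51 was as far from 0 as those of called genes, but its wider spread (SE 0.16, 95% interval -0.85 to -0.17) gave an edgeR adjusted p of 0.169. Plk1, the kinase that drives centrosome maturation and mitotic entry, was at 90.7, 57.5, 99.5, 77.4 and 89.3 CPM on the standard diet and 71.8, 60.1 and 73.5 CPM on the BCAA-free diet, where the lowest value of all was again in standard-diet replicate 2. Its log2 fold change was -0.28 (SE 0.15, edgeR adjusted p = 0.448). Melk and Ccna2 were at -0.41, Aurka at -0.25 and Cdk1 at -0.22. Ccnb2, the second B-type cyclin, was at 186, 145, 168, 189.8 and 183 CPM on the standard diet and 196, 159.6 and 174 CPM on the BCAA-free diet. The mean levels were 174 ± 18.2 (SD, n = 5) and 176 ± 18.4 CPM (SD, n = 3), and the 95% interval of the log2 fold change, -0.22 to 0.25, bounds a change in either direction.

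The 4 chromosomal passenger genes, whose products correct faulty attachments and guide cytokinesis, had a median of -0.27. No tool of the 3 called any of them, and in edgeR 3 had an unadjusted p under 0.05. Aurkb, the kinase of the complex, was at 123, 105, 109, 103 and 113 CPM on the standard diet and 98.9, 78.9 and 94.2 CPM on the BCAA-free diet. These ranges just missed each other, and the log2 fold change of -0.29 (SE 0.11) did not pass (edgeR adjusted p = 0.270). Birc5, which encodes survivin, was at -0.32, Cdca8 (borealin) at -0.25 and the scaffold Incenp at -0.18.

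The genes grouped under anaphase and sister separation had a median of -0.14, the closest to 0 of the roles. No tool of the 3 called any of these 5 genes, and in edgeR 1, Ube2c, had an unadjusted p under 0.05. Cdc20, which activates the anaphase-promoting complex, was at 86.8, 56.9, 90.7, 92.8 and 80.2 CPM on the standard diet and 78.3, 74.9 and 83.9 CPM on the BCAA-free diet. All BCAA-free values lay inside the standard-diet range, and the log2 fold change was -0.04 (95% interval -0.34 to 0.25, edgeR adjusted p = 0.926). Its sign turned in 4 of the alternatives, so no direction is given for it. Pttg1 encodes securin, the inhibitor of the protease that cuts cohesin. It was at 17.9, 16.1, 17.1, 14.7 and 18.1 CPM on the standard diet and 19.8, 21.7 and 20.6 CPM on the BCAA-free diet. Every BCAA-free library was above every standard-diet library, opposite to the 17 genes whose diets separated downwards, but the log2 fold change of 0.30 (95% interval -0.02 to 0.63) did not pass (edgeR adjusted p = 0.406). Espl1, the separase that securin restrains, was at -0.14. Ube2c, the ubiquitin-conjugating enzyme of the anaphase-promoting complex, was at -0.51 with an SE of 0.17, and Fbxo5, which encodes Emi1, an inhibitor of that complex, was at -0.18.

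**Figure D3:**
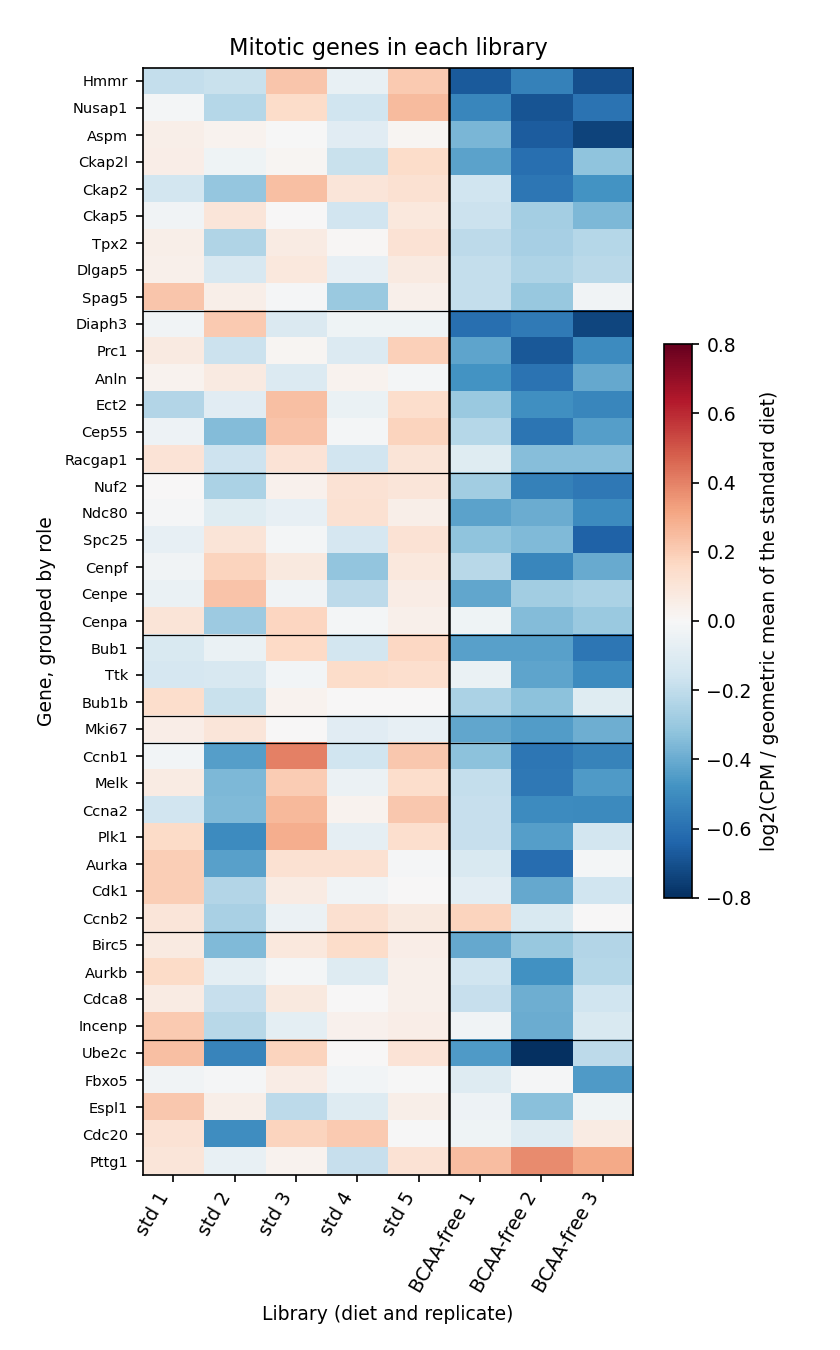
Log2 ratio of each gene's CPM to its geometric mean on the standard diet (colour) for 41 genes in rows, grouped by role, and the 8 libraries in columns. The BCAA-free columns are lower over most rows, with medians of -0.21, -0.44 and -0.36, and the column of standard-diet replicate 2, with a median of -0.17, is the lowest of the standard diet.

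Libraries of a diet differed across the whole set. Against the geometric mean of the standard diet, the median log2 level of the 41 genes was 0.05, -0.17, 0.06, -0.05 and 0.08 in standard-diet replicates 1 to 5 and -0.21, -0.44 and -0.36 in the BCAA-free replicates. Every BCAA-free library had a lower median than every standard-diet library, although standard-diet replicate 2 and BCAA-free replicate 1 were close. Standard-diet replicate 2 was the lowest standard-diet library in 23 of the 41 genes, among them Ccnb1, Plk1, Cdc20 and Ccnb2. BCAA-free replicate 2 was the lowest of all 8 libraries in 23 genes and replicate 3 in 12. BCAA-free replicates 1, 2 and 3 were below the lowest standard-diet library in 21, 35 and 27 of the 41 genes. With standard-diet replicate 2 left out, 34 of the 41 had an unadjusted p under 0.05, compared with 30 with it. Over all genes, 1651 of 13232 tested had such a p without that library and 1800 of 13364 with it. Standard-diet replicate 2 held the least neutrophil marker RNA (305 CPM) and BCAA-free replicate 2 the most (2768 CPM), and the part of that in the mitotic levels was not tested.

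**Figure D4:**
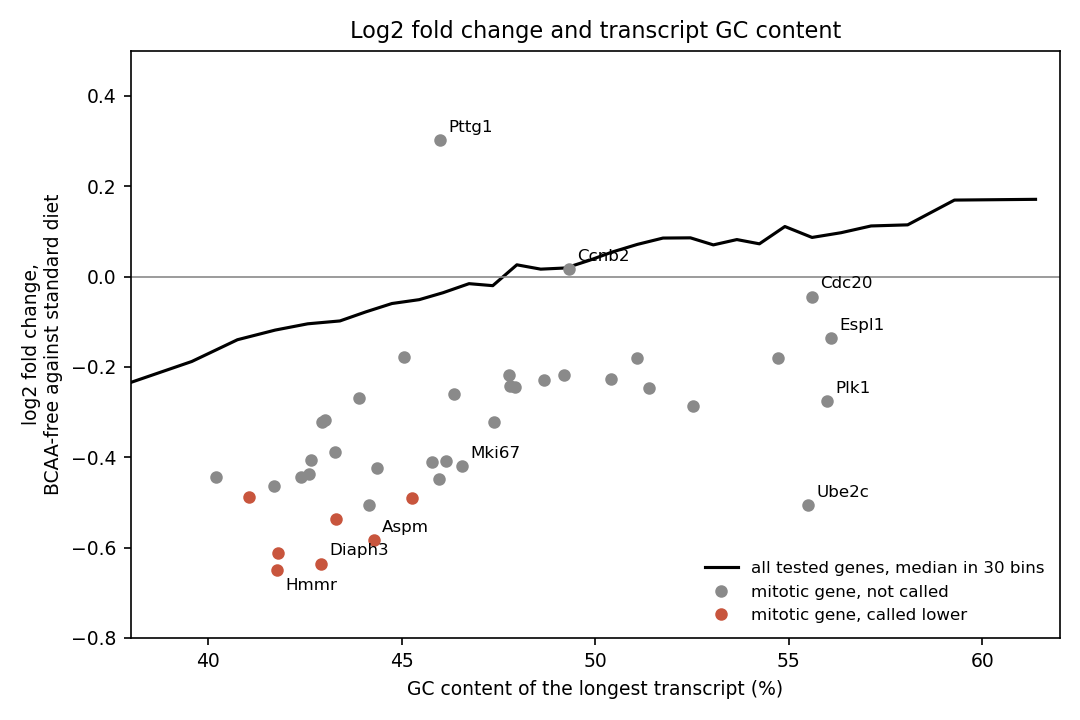
Log2 fold change, BCAA-free against standard diet, of the 41 genes (points) against the GC content of the longest transcript in percent, with the running median of all tested genes as a line. The 7 called genes lie at or below 45.3% GC, and both the points and the line rise with GC content.

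The fold changes also followed base composition. Across the 41 genes, Spearman's rho between log2 fold change and GC content of the longest transcript was 0.66, and across 11947 tested genes with a length it was 0.35. Genes of 1 fit are not independent replicates, and these values are descriptions. The 13 genes of lowest GC content (40.2% to 43.3%) had a median log2 fold change of -0.44 and 5 calls, where all tested genes of that range had -0.12 and 1.43% called lower. The 15 in the middle had -0.41 and 2 calls, beside -0.04 and 0.710% for all genes of their range. The 13 of highest GC content (47.9% to 56.1%), among them Plk1, Cdc20 and Espl1, had -0.23 and no call, beside 0.06 and 0.315%. The share of all genes called lower thus fell with GC content as the members' calls did. In a fit chosen after seeing the data, from which trends with GC content and length were removed, rho was 0.24 over the 41 genes and -0.01 over all. That fit called 9 of the 41 lower, the 7 with Ckap2l and Mki67. It also called more genes lower over all 13364 tested, 168 where the main fit called 72. The median of the 41 was again -0.32. In it the 3 GC ranges had medians of -0.37, -0.37 and -0.28, beside -0.02, -0.03 and -0.03 for all genes.

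The rest of the mitotic programme was read from 5 lists of 123 tested genes outside the 41. Of these, 100 had a negative log2 fold change, with a median of -0.22, and 3 were called lower in edgeR, beside the 0.539% of all genes called lower. DESeq2 called 14 of them lower and 1 higher, and limma-voom 1 lower, where these tools called 1.85% and 0.367% of all genes lower. Among the 3 that edgeR called were Top2a, the topoisomerase that untangles sister DNA and a target of doxorubicin (-0.60, edgeR adjusted p = 0.00708), and Plk4, the kinase that starts centriole duplication (-0.48, edgeR adjusted p = 0.0483). Plk4 passed in 0 of the 8 fits that left out 1 library (highest adjusted p 0.132), and Top2a in all but the fit without BCAA-free replicate 2 (0.0568). Top2a was at 1301 ± 55.4 CPM on the standard diet (SD, n = 5) and 860.4 ± 21.7 on the BCAA-free diet (SD, n = 3). By list, the median was -0.29 for 34 other kinetochore and checkpoint genes, -0.26 for 23 condensin, cohesin and shugoshin genes, -0.21 for 20 entry regulators and transcription factors, -0.20 for 30 centrosome and other spindle genes and 0.01 for 16 subunits of the anaphase-promoting complex, 8 of which were negative.

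Among 14 kinesins, the motors left out of the 41, 13 had a negative log2 fold change, with a median of -0.37, and 2 were called lower, beside 0.539% of all genes: Kif15 (-0.64, edgeR adjusted p = 0.00747) and Kif11 (-0.59, adjusted p = 0.0135), which both push spindle poles apart. Without BCAA-free replicate 2 neither passed (0.0568 and 0.0988). The 43 genes of G1/S and DNA replication, active earlier in the cycle, had a median of -0.06 with 29 negative, and edgeR and limma-voom called none. DESeq2 called 2 lower, beside 1.85% of all genes. An unadjusted edgeR p under 0.05 was found for 4 of the 43, 3 of them lower, and for 1800 of all 13364 genes tested. The difference between the mitotic and the replication genes was not tested.

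**Figure D5:**
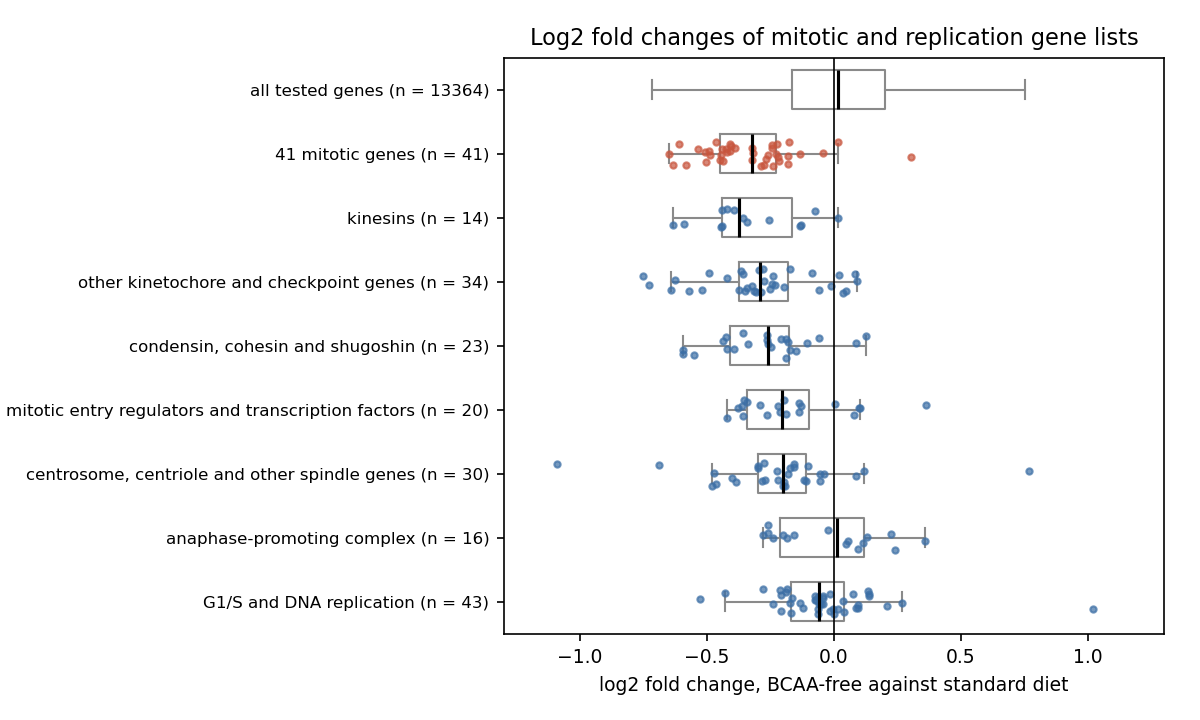
Log2 fold change, BCAA-free against standard diet, on the horizontal axis for each gene of the 41, the other mitotic lists, the kinesins and the G1/S and replication genes, with the number of genes beside each list. Medians run from -0.37 for the kinesins and -0.32 for the 41 genes to -0.06 for G1/S and replication and 0.01 for the anaphase-promoting complex.

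Some counts are uncertain because reads of overlapping genes may be split and the strand setting is not given in the sources used here. Nusap1 overlaps Oip5 (20.5 CPM on the standard diet), Prc1 overlaps Rccd1 (20.8), Anln overlaps 9530077C05Rik (1.32), Ccna2 overlaps Exosc9, Aurka overlaps Cstf1 and Cdc20 overlaps Elovl1. Ccnb1 and Ccnb2 have named pseudogenes.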

How the data were processed

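Raw counts per gene were deposited by the authors in 1 table for the whole series, without normalization. The submitters' processing notes name mm10, featureCounts and Cell Ranger without versions. For the aligner and strand setting, not given in the sources used here, nothing was assumed. Per the labels' protocols, the kit was Kapa mRNA HyperPrep and reads were paired, of 38 bp. Each of the 8 columns matched the description of 1 sample, and groups came from sample titles. RefSeq (GRCm38.p6) gave symbols for 25275 of 27179 identifiers.

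edgeR 4.0.16 (R 4.3.3) was run on the counts of all 8 libraries with TMM factors, its default filter (minimum count 10, minimum total 15), robust quasi-likelihood, diet as the only term and two-sided Benjamini-Hochberg adjustment over 13364 genes with a threshold of 0.05. CPM values use TMM-scaled totals, except marker sums, levels of single cell-type markers and the share of counts, which use unscaled totals. Standard errors were taken from the log2 fold change and the F statistic. Totals were 14851240 to 38966911 counts, and the biological coefficient of variation of members was 10.6% to 16.7%. No library repeated another: within a diet, chi-square over degrees of freedom was 19.5 to 61.9 for each pair. The code was tested on simulated counts. Transcript length and GC content came from the longest transcript of GENCODE M21.

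Alternatives were DESeq2 1.42.0, limma-voom (limma 3.58.1), RLE scaling, library totals only, no filter, a non-robust fit, a replicate block and each library left out. A fit without the library of each diet with the most neutrophil marker RNA and one with GC and length trends removed were added after seeing the data. All 41 members are given, with values in every library for those with an adjusted p under 0.05 and for fixed members of each role (Mki67, Ccnb1, Plk1, Aurkb, Ndc80, Bub1b, Cdc20, Aspm and Anln). From each other pathway list up to 3 called genes are named, except for results that are not reported here. Ccnb2 and Pttg1 were given in full after their values were seen. The members and lists were chosen with earlier results of these data known. A planned search of protein sequences was not run, and promoters of Aurkb, Ccna2, Dlgap5, Incenp and Tpx2 were not analysed here.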

Additional observations from a re-analysis of the deposited data

Results flagged for a closer look

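In 3 of 41 genes, 1 of the 5 standard-diet libraries stood apart from the other 4 by Dixon's criterion, which chance meets in about 1 group in 20. Diaph3, the called formin gene, was at 191.8 CPM in standard-diet replicate 2, above 153 to 163 in the others. That library lies farther from the BCAA-free libraries, and without it Diaph3 still passed in edgeR with an adjusted p of 0.0116. Birc5, which encodes survivin, was at 85.0 CPM in standard-diet replicate 2, below 113 to 120.5 in the others. Fbxo5, which encodes the inhibitor Emi1, was at 77.7 CPM in standard-diet replicate 3, above 73.2 to 74.5 in the others.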

How the results depend on the processing

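Of 697 log2 fold changes (41 genes under 17 alternatives), 630 kept their direction and side of the threshold, 46 lost a call, 14 gained one and 7 changed sign. All 7 belonged to 2 genes that were not called. Cdc20 became 0.00307 with library totals only, 0.0426 with the replicate block and 0.0257 without standard-diet replicate 3 and BCAA-free replicate 2, and ran from -0.149 to 0.0057 with single libraries left out (above 0 without standard-diet replicate 4). Ccnb2 became -0.0389 with GC and length trends removed, and ran from -0.0657 to 0.0756 with single libraries left out (below 0 without BCAA-free replicate 1 or standard-diet replicate 2).

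The 7 genes called lower became 13 in DESeq2, 11 with no filter, 4 with library totals only and 1 without standard-diet replicate 3 and BCAA-free replicate 2. Over all genes, 72 called lower became 251 in DESeq2, 168 with no filter, 168 with GC and length trends removed and 41 without those 2 libraries. The 29 called higher became 131, 69 and 6 in DESeq2, with no filter and without those libraries, and 15 in limma-voom. With single libraries left out, members called lower ran from 1 to 7, all genes called lower from 29 to 73 and higher from 3 to 78. The cause of these shifts was not tested, beyond the fewer samples. With the replicate number as a block, 0 members were called lower, and 0 genes of all in either direction, with 19 members and 899 genes at an unadjusted p under 0.05. Standard-diet replicates 4 and 5 have no BCAA-free library of the same number, so that fit compared the diets within 3 pairs. Same-numbered libraries did not deviate together (correlations of -0.30 to -0.05 over 3 pairs). So few pairs cannot exclude a pairing, and the labels do not say that the numbers pair the mice. The median member log2 fold change stayed between -0.42 and -0.28 in all alternatives. Depth limits little here, since no member had fewer than 245 counts.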
